A study of Mus musculus with 9 samples.

Results

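The miRNAs miR-34a, miR-34b, miR-34c, miR-192, miR-194 and miR-215 are known for being raised through the tumor suppressor p53, and they were followed in B16F1 cells, an established mouse melanoma line derived from C57BL/6J skin. The 6 hairpin names were chosen for this known role, but with earlier results of these data known, and every entry of the count table that carries one of them was taken. They account for 38 of the 4351 sequence tags listed, a tag being a short read sequence, from 13 to 20 nt here, that was placed on a hairpin. Of these tags mmu-mir-34a has 1, mmu-mir-34b 3, mmu-mir-34c 5, mmu-mir-192 12, mmu-mir-194 14 over its hairpin copies and mmu-mir-215 3, and together they make up 8 of the 698 hairpin arms that had a count. Another 13 entries that give only a mature name of these miRNAs had a count of 0 in every library. Small RNA was measured in 3 libraries of control cells that were not exposed, in 3 of cells exposed to 5 mM L-Tyr, the amino acid from which melanin is made, and in 3 of cells given 5-Brd-2′-dU, a thymidine analogue that can enter DNA in place of thymidine, at 2.5 µg/mL. Both exposures lasted 72 h, all cells had the same culture medium, and the study describes the cells exposed to 5-Brd-2′-dU as senescent and less pigmented. All libraries come from 1 cell line, and the labels do not say how the cultures were kept apart, so the spread between libraries may be partly technical.

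As background, p53 responds to DNA damage and to other stress by switching on genes that stop the cell cycle, among them that of the cyclin-dependent kinase inhibitor p21. The miR-34 family lies downstream of p53 and lowers cyclins, cyclin-dependent kinases, Met and Bcl2, and its forced expression can drive cells into arrest or senescence. The miRNAs miR-192, miR-194 and miR-215 are made from paired genes, are abundant in gut, liver and kidney, and have been described to raise p21 and to act on Mdm2, the ubiquitin ligase that holds p53 low.

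A miRNA selects its targets mainly through its seed, bases 2 to 8 from the 5′ end, so the mature sequences are given to show which of the members can be expected to share targets. They come from RefSeq with the mouse build GRCm38.p6, are written 5′ to 3′, and have the seed in capitals. The mature form of miR-34c-5p is named only.
miR-34a-5p: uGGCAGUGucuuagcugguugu
miR-34b-5p: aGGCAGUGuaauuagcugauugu
miR-34b-3p: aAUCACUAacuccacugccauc
miR-34c-3p: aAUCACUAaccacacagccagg
miR-192-5p: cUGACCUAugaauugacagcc
miR-215-5p: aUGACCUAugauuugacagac
miR-194-5p: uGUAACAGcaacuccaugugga
The sequences fall into seed groups. The 5p arms of miR-34a and miR-34b have the seed GGCAGUG, and the 3p arms of miR-34b and miR-34c share AUCACUA. For miR-34c-5p the reference holds no mature form, so it was not placed in a group here. Its tag GCAGTGtagttagctgattg, written as DNA, starts with the last 6 bases of GGCAGUG. The 5p arms of miR-192 and miR-215 share UGACCUA and differ at 3 positions, C1A, A12U and C20A, counted from 1 at the 5′ end with the base of miR-192-5p first. The seed of miR-194-5p, GUAACAG, was its own among the members.

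The genes lie in pairs, apart from Mir34a. In the mouse build NCBIM37 (mm9), Mir192 (chr19:6264844-6264932, plus strand) and Mir194-2 (chr19:6264643-6264728, plus strand) are 115 bp apart and overlap no other annotated gene. The second pair, Mir194-1 (chr1:187137198-187137264, plus strand) and Mir215 (chr1:187137460-187137571, plus strand), is 195 bp apart and lies within an intron of Iars2, which is read from the opposite strand. Mir34b (chr9:50911667-50911750) and Mir34c (chr9:50911139-50911215), both on the minus strand, are 451 bp apart. Mir34a (chr4:149442563-149442664, plus strand) stands by itself. None of the last 3 genes overlaps another annotated gene.

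The tags actually counted were shorter than the mature forms. For miR-34c-5p, which has no mature form in the reference, capitals were set by the seed of miR-34b-5p. The tags with most counts of the 4 arms that held most counts are written here as DNA, with the part of the seed that they still contain in capitals.
miR-192-5p: TGACCTAtgaattgacagcc
miR-194-5p: TAACAGcaactccatgtgga
miR-34b-3p: TCACTAactccactgccatc
miR-34c-5p: CAGTGtagttagctgattgc
The leading tag of miR-192-5p lacks the first base of the mature form and keeps the whole seed, and those of miR-194-5p and miR-34b-3p begin inside the seed. Positions were set for the 32 member tags, with 1212 counts, that match their hairpin exactly on an arm with a mature form in the reference, which leaves out miR-34c-5p. Of these counts 11.8% started on the annotated first base, 65.0% started 2 or 3 bases further in, and 50.5% ended on the annotated last base. Among all tags placed in the same way, 30.8% of the counts started on the annotated base, 40.2% started 2 or 3 bases in, and 45.4% ended on the annotated last base. Late starts were thus found across the table, with a larger share for the members, a difference that was not tested. No tag longer than 20 nt is listed, and the tags of exactly 20 nt held 71.9% of all the members' counts. Where a mature form is longer than 20 nt, a read of its whole length cannot appear as such, and whether the late starts come from the cells or from the trimming of reads was not tested.

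The number of deposited counts limited what could be seen. The study reports far more reads per library than the count table holds, so its totals are not the sequencing depth. The deposited counts came to between 144452 and 424122 per library, and the members took 0.013% to 0.110% of them, 1347 counts in all. For a listed tag with a count of 0, the upper limit of 3 counts ran from 7.07 CPM in the library with most deposited counts to 20.8 CPM in that with fewest. CPM is a count scaled to the library's total of deposited counts. These limits, like the Wilson intervals below, account for the error of counting alone, since PCR copies cannot be told from separate molecules here. Every tag in the table reaches at least 5 counts in some library, so that a tag which stayed under 5 in all of them would not be listed and has no such limit. Unless another scale is named, levels below are CPM scaled with edgeR's TMM factors, with a lowest factor of 0.735 (replicate 3 of 5-Brd-2′-dU) and a highest of 1.20 (replicate 2).

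A pair of libraries stood apart for results given below. In replicate 3 of 5-Brd-2′-dU, miRNAs of stromal and endothelial cells (miR-143, miR-145a, miR-126a and miR-199a, all with a count) summed to 275340 CPM, against 1759 to 7374 CPM in the other 8 libraries. Erythroid miRNAs (2 of 2 names) reached 7082 CPM there and at most 286 CPM elsewhere, leukocyte miRNAs (miR-142a, miR-223 and miR-150, all with a count) 1502 CPM and at most 68.7 CPM, and muscle miRNAs (1 of 3 names, with miR-133a and miR-206 at 0) 235 CPM and 0. Epithelial miRNAs (6 of 7 names, with miR-429 at 0) summed to 3443 CPM there and to between 175 and 1733 CPM in the others. Liver miR-122, of interest because miR-192 and miR-194 are abundant in liver, was at 21.4 CPM in that library, at 76.3 CPM in replicate 2 of L-Tyr and at 0 in the other 7. Melanocyte miRNAs (miR-211 and miR-204) were present in every library, from 6678 to 7628 CPM with 5-Brd-2′-dU, from 10769 to 17142 CPM in control cells and from 22501 to 26630 CPM with L-Tyr. The part of these other cell types in the members' levels was not tested, and the fold changes of the members against control cells and L-Tyr are also given without this library.

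**Figure D1:**
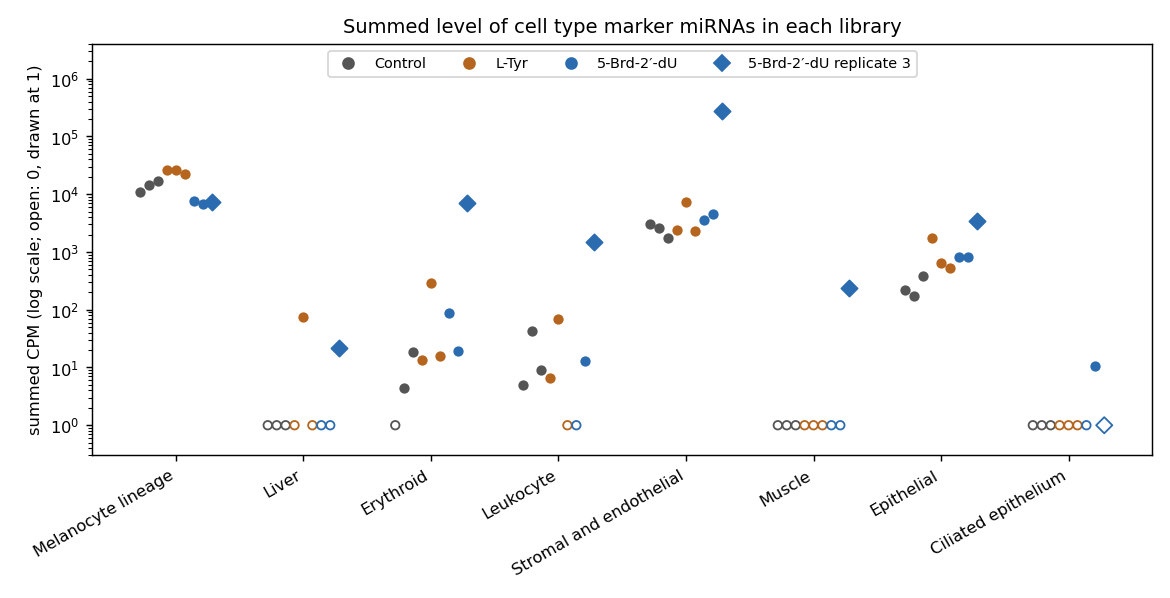
Summed level of the marker miRNAs of 8 cell types (x axis) in CPM on a log scale (y axis), with 1 point per library, colored by group, open points for a level of 0 drawn at 1 and a diamond for replicate 3 of 5-Brd-2′-dU. That library lies above the others for the stromal and endothelial (275340 CPM), erythroid, leukocyte, muscle and epithelial lists, and among the other 5-Brd-2′-dU libraries for the melanocyte list.

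The other library that stood apart was replicate 2 of 5-Brd-2′-dU, in which 28 of the 38 member tags had a count (73.7%), while 3 to 11 of them did in each of the other 8 libraries (7.89% to 28.9%). Of all 4351 tags, 63.9% had a count in that library and 37.4% to 59.5% in the others. It was the only library in which the share for the members was above that for all tags. How tags came to be listed bears on this comparison, since 13 of the 38 member tags (34.2%) reached 5 counts in that library alone, as did 8.6% of all tags.

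**Figure D2:**
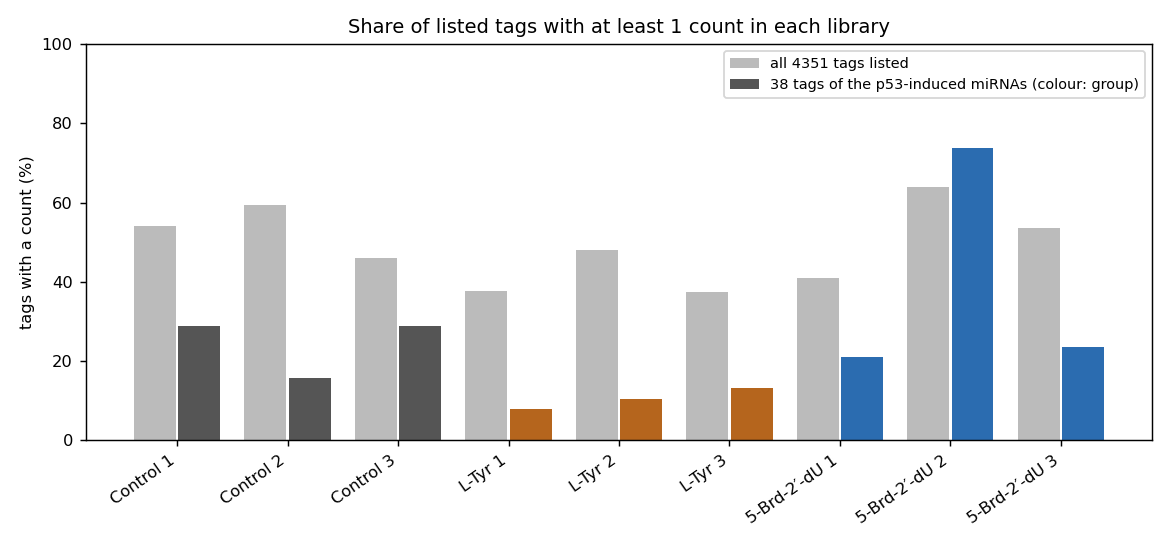
Share of listed tags with at least 1 count (y axis, percent) in each of the 9 libraries (x axis), for all 4351 tags in light gray and for the 38 tags of the p53-induced miRNAs in the color of the group. The members' bar stands above the gray bar in replicate 2 of 5-Brd-2′-dU (73.7% against 63.9%) and below it in the other 8.

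Of the 12 arms of the 6 hairpins, 8 had a count, and miR-34a-3p, miR-34b-5p, miR-192-3p and miR-215-3p had none. By mean CPM over the 9 libraries miR-192-5p came first among the members (651 counts, rank 141 of the 698 arms with a count), followed by miR-194-5p (375 counts, rank 179), miR-34b-3p (121 counts, rank 244) and miR-34c-5p (72 counts, rank 304). The remaining arms, miR-215-5p (67 counts), miR-34c-3p (33 counts), miR-34a-5p (23 counts) and miR-194-3p (5 counts), were counted in at most 2 libraries each. No member arm reached 10 counts in all 9 libraries, and for that reason no miRNA is named as having a similar pattern.

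**Figure D3:**
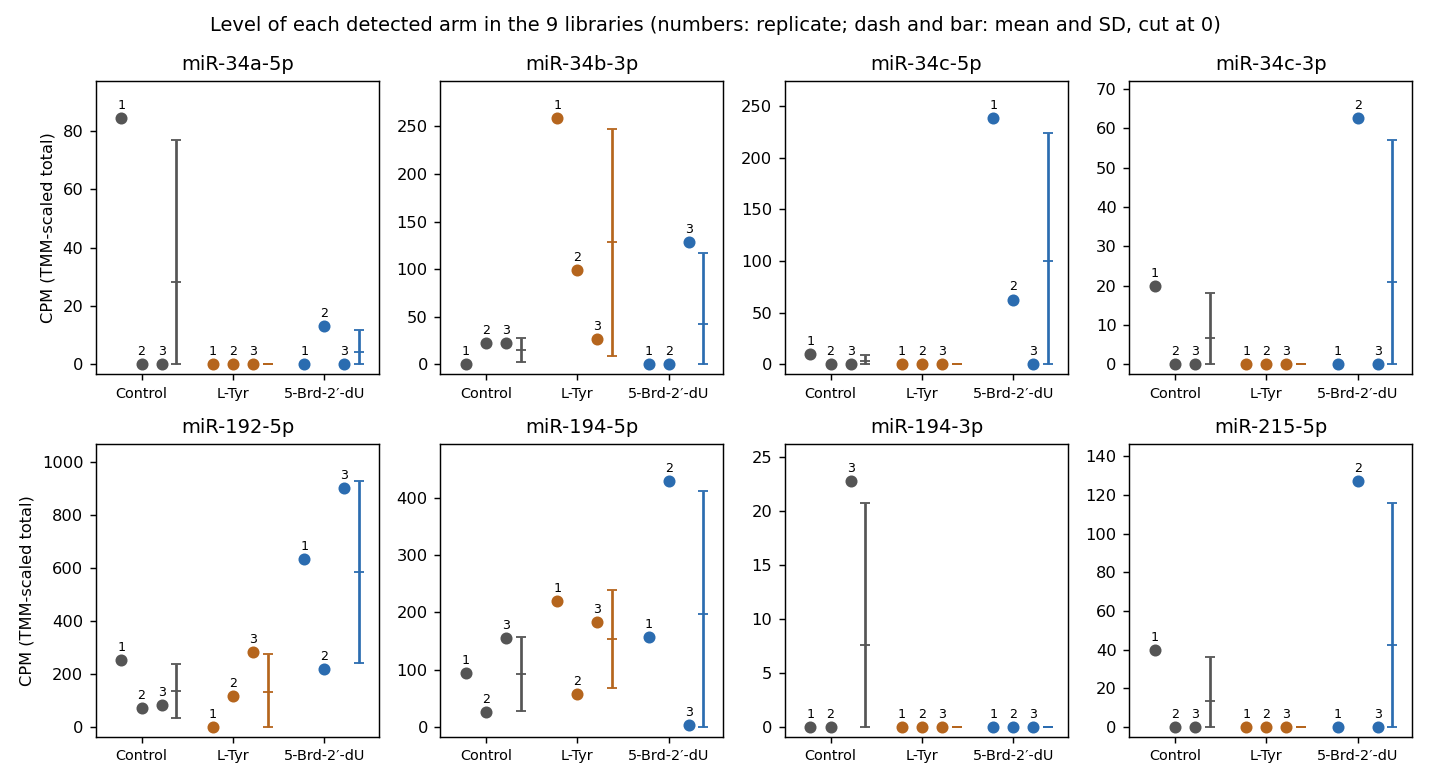
Level of each of the 8 arms with a count (panels), in CPM of the TMM-scaled total (y axis, starting near 0 with its own range in each panel), by group (x axis). Points are libraries numbered by replicate, and the dash and bar give the mean and SD (n = 3) with the bar cut at 0; only miR-194-5p was above 0 in all 9 libraries, and 5 of the panels hold at most 3 libraries above 0.

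The first comparison asks whether the members differ between control cells and those given 5-Brd-2′-dU, the exposure linked to senescence. The member with the highest level, miR-192-5p, had a higher mean with 5-Brd-2′-dU, but neither it nor any other member passed the test. In control cells miR-192-5p was at 253, 73.1 and 82.0 CPM in replicates 1, 2 and 3, from 51, 33 and 18 counts. With 5-Brd-2′-dU it was at 634, 220 and 903 CPM, from 109, 102 and 253 counts. Replicates 1 and 3 of 5-Brd-2′-dU lay above every control library, and replicate 2 lay below replicate 1 of control cells. The group means were 586 ± 344 CPM (SD, n = 3) and 136 ± 102 CPM (SD, n = 3), a difference larger than either SD. The log2 fold change was 2.23 (SE 0.758), with edgeR's adjusted p = 0.173 over the 253 arms tested (quasi-likelihood test with Benjamini-Hochberg adjustment). Of those arms 12 were called at an adjusted p under 0.05 (4.74%), 11 higher and 1 lower (2 higher and 1 lower when libraries were scaled by total count, 5 and 1 with DESeq2's size factors), and 36 had an unadjusted p under 0.05 and a higher level (14.2%), as miR-192-5p did at 0.0197 before adjustment. An exact two-sided permutation test of the same levels gave p = 0.2, where 3 libraries against 3 allow no p under 0.1.

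How the libraries were scaled decided whether the groups overlapped for miR-192-5p. Scaled by total count alone, the range was 265 to 663 CPM with 5-Brd-2′-dU and 68.2 to 257 CPM in control cells, and the groups did not overlap, as was the case with a higher level for 14.2% of the arms tested. The log2 fold change without replicate 3 of 5-Brd-2′-dU, the library with miRNAs of other cell types, was 1.74 (SE 0.832, edgeR's adjusted p = 0.461). Leaving out other libraries gave values up to 2.98, reached without replicate 1 of control cells. In none of the 15 alternative analyses was the value negative, and in none did it pass the test. Over all arms tested the median log2 fold change was 0.02 with TMM and −0.09 with total-count scaling, small beside the value of miR-192-5p.

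**Figure D4:**
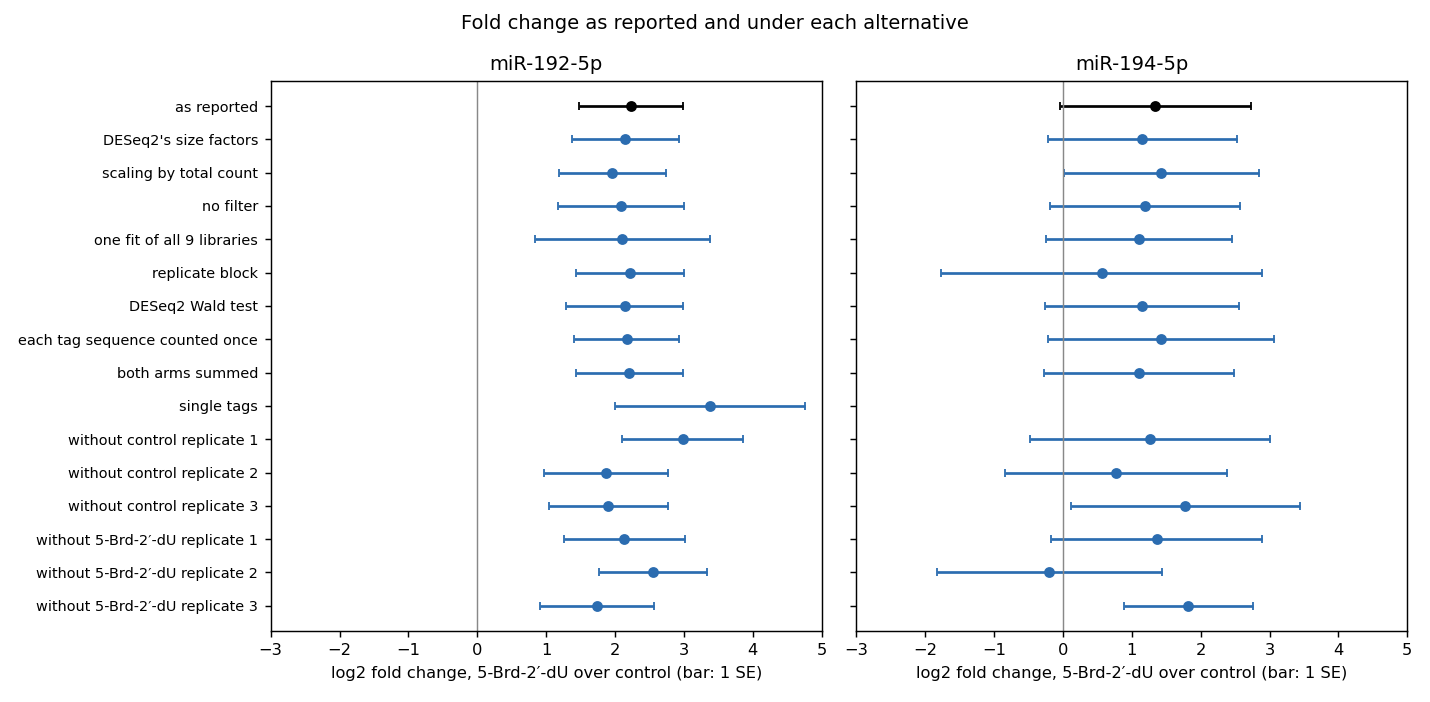
Log2 fold change of 5-Brd-2′-dU over control cells (x axis, bar for 1 SE) of miR-192-5p (left) and miR-194-5p (right) as reported (black) and under each alternative analysis (y axis). All values of miR-192-5p are above 0, from 1.74 to 3.38, while miR-194-5p falls to −0.20 without replicate 2 of 5-Brd-2′-dU.

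For miR-192-5p the reads themselves also varied between libraries. The share of its counts in tags that hold the whole seed was 2.0% in replicate 1 of control cells (1 of 51 counts, 95% Wilson interval 0.35% to 10.3%), 81.8% in replicate 2 (27 of 33, 65.6% to 91.4%) and 61.1% in replicate 3 (11 of 18, 38.6% to 79.7%). In the 5-Brd-2′-dU libraries it ran from 35.3% in replicate 2 to 62.4% in replicate 1, within the range of the control libraries. Most of the counts in replicate 1 of control cells lay in the tag GACCTAtgaattgacagcc, with 32 of the 51 counts, which begins at the third base of the mature form. Replicate 3 of 5-Brd-2′-dU had 2 tags that were counted in no other library, ACCTAtgaattgacagccat with 43 counts, which is not found exactly in the hairpin, and ACCTAtgaattgacagccag with 32 counts, which is.

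The miRNA made from both of these gene pairs, beside Mir192 and beside Mir215, miR-194-5p, was counted in all 9 libraries. It was at 94.3, 26.6 and 155 CPM in control replicates 1, 2 and 3, and at 157, 430 and 3.57 CPM in those of 5-Brd-2′-dU. The exposed group held both the highest and the lowest of these 6 values, the lowest resting on 1 count in replicate 3. Means were 92.0 ± 64.2 CPM and 197 ± 216 CPM (SD, n = 3 each), and the log2 fold change was 1.34 (SE 1.38, edgeR's adjusted p = 0.709). Without replicate 2 of 5-Brd-2′-dU, which held 53.1% of all counts of this arm, it was −0.20 (edgeR's adjusted p = 0.982), and without replicate 3 it was 1.82 (SE 0.935, edgeR's adjusted p = 0.477). The levels of miR-192-5p and miR-194-5p went apart in replicate 3 of 5-Brd-2′-dU, where miR-192-5p had 87.2% of the members' counts and miR-194-5p had 0.345%, against 15.3% to 54.8% for miR-194-5p in the other 8 libraries. The leading tag of miR-194-5p was listed under both hairpin copies, with 103 counts under Mir194-1 and 112 under Mir194-2, so that the copy it came from is uncertain.

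The third member of these genes, miR-215-5p, which shares its seed with miR-192-5p, was counted in 2 libraries. It was at 127 CPM in replicate 2 of 5-Brd-2′-dU (59 counts), at 39.7 CPM in replicate 1 of control cells (8 counts) and at 0 in the other 7. The other arm of miR-194, miR-194-3p, had 5 counts, all in replicate 3 of control cells. Both arms were too sparse for the filter on low counts, and of the 8 arms only miR-192-5p and miR-194-5p entered this fit.

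The miR-34 family, the best known of the p53-induced miRNAs, had few counts, and none of its arms was counted in all 9 libraries. The level of miR-34a-5p, the member most widely expressed in mouse tissues, rested on a single tag, GCAGTGtcttagctggttgt, with 17 counts in replicate 1 of control cells (84.4 CPM), 6 in replicate 2 of 5-Brd-2′-dU (13.0 CPM) and 0 in the other 7 libraries. Its highest level was thus in a control library, and 73.9% of its counts were there. In contrast, miR-34c-5p was at 238 and 62.7 CPM in replicates 1 and 2 of 5-Brd-2′-dU (41 and 29 counts) and at 0 in replicate 3. In control cells it was at 9.93 CPM in replicate 1 (2 counts) and at 0 in replicates 2 and 3. Its groups overlapped because of the 0 in replicate 3, and the exact two-sided permutation test of the difference of 97.0 CPM gave p = 0.4. Without that library the difference was 147 CPM (exact permutation p = 0.2, the smallest that 2 against 3 allows). The other arm of the same hairpin, miR-34c-3p, was counted in replicate 2 of 5-Brd-2′-dU (62.7 CPM, 29 counts) and in replicate 1 of control cells (19.9 CPM, 4 counts) only. In replicate 2 both arms of miR-34c thus had 29 counts, while replicate 1, with the highest 5p level, had no count of the 3p arm.

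The second comparison asks the same of L-Tyr, which stimulates pigment formation and also slows growth. Neither of the 2 members that entered this fit was called, where 6 of the 233 arms tested were (2.58%), and the clearest separation was for an arm too sparse for the fit. That arm, miR-34b-3p, was at 259, 99.2 and 26.2 CPM in replicates 1, 2 and 3 of L-Tyr (39, 26 and 5 counts) and at 0, 22.1 and 22.8 CPM in those of control cells (0, 10 and 5 counts). All L-Tyr libraries lay above all control libraries on both scales, although by little for replicate 3, at 26.2 CPM beside 22.8 CPM. The means were 128 ± 119 CPM and 15.0 ± 13.0 CPM (SD, n = 3 each), and an exact permutation test, two-sided, gave p = 0.1 (no smaller value is possible with 3 against 3), or 1 after adjustment over the 24 tests of the 8 arms in 3 comparisons. Groups with L-Tyr above control cells did not overlap for 3.58% of all 698 arms with a count and for 10.3% of the 233 tested. The counts came from different tags, with all 39 counts of replicate 1 in TCACTAactccactgcca and all 26 of replicate 2 in CACTAactccactgccatc, neither of which was counted in another L-Tyr library.

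The arms of the miR-192 and miR-194 genes showed no shift with L-Tyr larger than their spread. In L-Tyr replicates 1, 2 and 3, miR-192-5p was at 0, 118 and 283 CPM, so that the group spanned all control values. The mean of 134 ± 142 CPM (SD, n = 3) gave a log2 fold change of −0.08 relative to control cells (SE 1.44, edgeR's adjusted p = 0.998), whose sign was positive in 7 and negative in 7 of the 14 alternatives. All arms tested had a median of −0.20 with TMM and of 0.07 with total-count scaling. With the latter miR-192-5p had 0.13, so that it lay somewhat above the median on each scale. The level of miR-194-5p was 219, 57.2 and 183 CPM, with a log2 fold change of 0.68 (SE 1.12, edgeR's adjusted p = 0.913). The SE exceeded the change in both cases. In L-Tyr none of miR-34a-5p, miR-34c-5p, miR-34c-3p, miR-194-3p and miR-215-5p had a count, with upper limits of 12.6 to 20.8 CPM of the total count per library for a listed tag.

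The third comparison set the exposures against each other. None of the 3 member arms that entered this fit was called, where 6 of the 222 arms tested were (2.70%). The other member arms were too sparse for the filter on low counts. The log2 fold change of 5-Brd-2′-dU over L-Tyr was 2.16 for miR-192-5p (SE 1.36, edgeR's adjusted p = 0.602) and 0.49 for miR-194-5p (SE 1.41, edgeR's adjusted p = 0.986). Without replicate 3 of 5-Brd-2′-dU these were 1.67 (edgeR's adjusted p = 0.882) and 0.95 (edgeR's adjusted p = 0.956). The highest L-Tyr value of miR-192-5p, 283 CPM in replicate 3, lay between the lowest and the middle value with 5-Brd-2′-dU. For miR-34b-3p it was −1.54 (SE 1.98, edgeR's adjusted p = 0.888), with 0, 0 and 128 CPM in 5-Brd-2′-dU replicates 1, 2 and 3. The only 5-Brd-2′-dU library with miR-34b-3p was replicate 3, and without it the log2 fold change was −7.98 (SE 2.73, edgeR's adjusted p = 0.377), a value that depends on the prior count because both remaining libraries were at 0.

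Summed over the 8 arms, the members reached 1029, 916 and 1035 CPM in replicates 1, 2 and 3 of 5-Brd-2′-dU. The sums were 501, 122 and 283 CPM in control cells and 478, 275 and 493 CPM with L-Tyr. All 5-Brd-2′-dU libraries were above all other libraries, with means of 993 ± 66.9 CPM, 302 ± 191 CPM and 415 ± 122 CPM (SD, n = 3 each), which is given as a description because the members were chosen with earlier results of these data known. The listing of tags also bears on these sums. Of the 38 member tags, 13 (34.2%) reached 5 counts in replicate 2 of 5-Brd-2′-dU alone, as did 8.60% of all tags. In replicate 3 alone 2 member tags (5.26%) did, and 8.02% of all tags. The part of such tags in the difference between groups was not tested. Of the single arms tested, 13.0% lay higher without overlap in 5-Brd-2′-dU than in control cells and 11.3% than in L-Tyr. Over all 698 arms with a count these shares were 5.73% and 5.01%. They are for 1 arm in 1 comparison each, and no share was computed for sums of 8 arms or for both comparisons at once. In shares of the total count all 5-Brd-2′-dU libraries again lay above all others, at 0.0761% to 0.110% with 5-Brd-2′-dU and at most 0.0539% elsewhere. The order of the 5-Brd-2′-dU sums depended on the scale, replicate 3 being highest with TMM and lowest in shares of the total count. Their makeup differed, with miR-192-5p at 61.6% of the members' counts in replicate 1 and 87.2% in replicate 3, and miR-194-5p leading with 46.9% in replicate 2. Without replicate 3 the other 5-Brd-2′-dU libraries, at 1029 and 916 CPM, still lay above the highest other library, at 501 CPM.

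**Figure D5:**
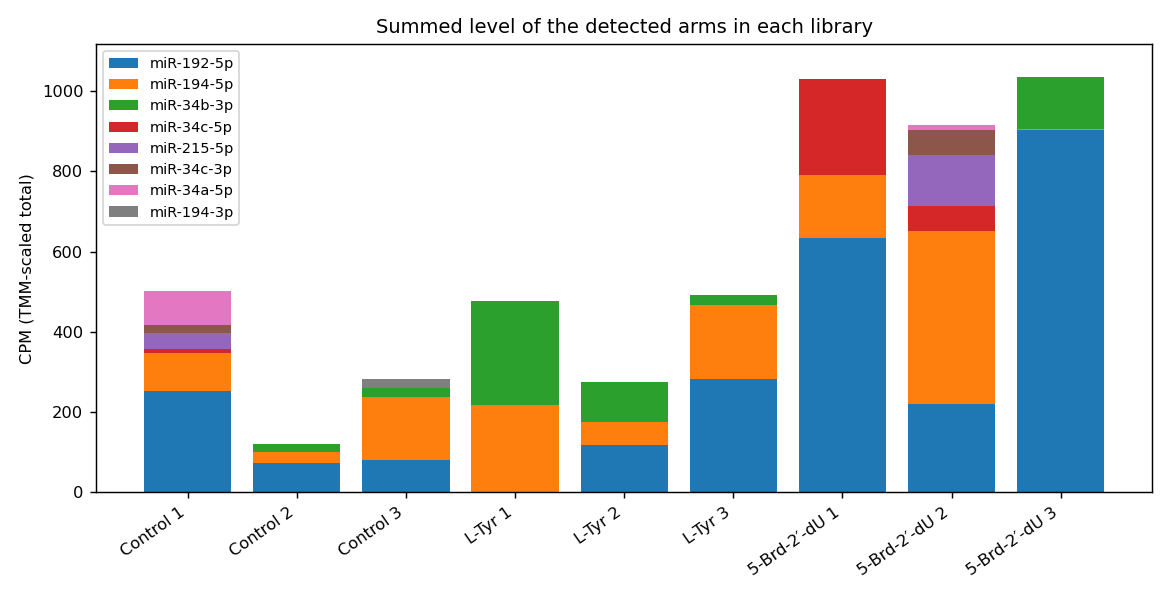
Summed level of the 8 arms with a count in each library (x axis), in CPM of the TMM-scaled total (y axis, from 0), stacked by arm. The 5-Brd-2′-dU bars end between 916 and 1035 CPM and the other 6 between 122 and 501 CPM, with miR-192-5p leading in replicates 1 and 3 of 5-Brd-2′-dU and miR-194-5p in replicate 2.

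Other miRNAs of the pathway were looked at by lists, which were chosen with earlier results of these data known and were not tested as sets. Of 15 names described as raised through p53 besides the members, 14 had a count (miR-605 was at 0). Between 5-Brd-2′-dU and control cells 12 of all 253 arms tested were called (4.74%), with miR-22 counted more than once through a predicted hairpin labeled miR-22. Among the 11 arms of this list tested there 1 was called, miR-22-3p, which has been linked to senescence and was higher (log2 fold change 1.43, SE 0.219, edgeR's adjusted p = 0.0176). Its value ran from 1.24 to 1.43 over 15 alternatives, and the call was kept in 7 of them, among these the fit without replicate 3 of 5-Brd-2′-dU (1.43, edgeR's adjusted p = 0.0310). The median over these arms was 0.59 beside 0.02 over all arms tested, and without replicate 3 of 5-Brd-2′-dU it was −0.16 beside −0.08. In that list miR-143-3p, a miRNA of smooth muscle and stromal cells, had a log2 fold change of 5.86 (SE 1.77, edgeR's adjusted p = 0.139), and of 1.12 (SE 0.358, edgeR's adjusted p = 0.195) without replicate 3, the library with the high stromal level. With L-Tyr none of the 12 arms tested was called, the smallest p-values being those of miR-149-5p (log2 fold change 0.62, edgeR's adjusted p = 0.218) and miR-22-3p (0.56, edgeR's adjusted p = 0.287). Between the exposures none of 12 was called either, and the same pair had 0.73 for miR-22-3p (edgeR's adjusted p = 0.217) and −0.79 for miR-149-5p (edgeR's adjusted p = 0.222).

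A second list held 8 miRNAs described as acting on the mRNA of p53 or p21, of which 7 had a count (miR-504 was at 0). With L-Tyr 1 of 11 arms was called, beside 6 of all 233 arms tested (2.58%). It was miR-30d-5p, described to lower p53 and singled out by the study, with a log2 fold change of 0.87 (SE 0.152, edgeR's adjusted p = 0.0198) and the call kept in 9 of 15 alternatives. The arm next to it in p was miR-106b-5p (−0.80, edgeR's adjusted p = 0.228), a miRNA known to act on p21. With 5-Brd-2′-dU none of 11 arms was called, the closest being miR-25-3p (−0.84, edgeR's adjusted p = 0.133) and miR-125b-5p (0.62, edgeR's adjusted p = 0.178), which are both described to act on p53. In this comparison miR-30d-5p had 0.43 (SE 0.211, edgeR's adjusted p = 0.318). The study itself reported miR-30d-5p as higher with both exposures, by sequencing and by RT-qPCR. Between the exposures none of 10 was called, with miR-30d-5p at −0.59 (edgeR's adjusted p = 0.222) and miR-25-3p at −0.76 (edgeR's adjusted p = 0.263).

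Among 6 other miRNAs linked to senescence, 5 had a count (miR-217 was at 0). Of all arms tested with 5-Brd-2′-dU, 4.74% were called relative to control cells and 2.70% relative to L-Tyr. In this list miR-21a-5p, a miRNA often raised in tumors, was the only one of 7 arms called with 5-Brd-2′-dU relative to control cells (log2 fold change 2.43, SE 0.500, edgeR's adjusted p = 0.0364). It was also higher relative to L-Tyr (1.88, SE 0.292, edgeR's adjusted p = 0.0112), in a comparison that shares the 5-Brd-2′-dU libraries with the former. Without replicate 3 of 5-Brd-2′-dU the first value was 2.05 and no longer called (edgeR's adjusted p = 0.0881), and the second was 1.47 and still called (edgeR's adjusted p = 0.0345). The next arms in p were miR-24-3p against control cells (0.50, edgeR's adjusted p = 0.187) and miR-31-5p against L-Tyr (0.89, edgeR's adjusted p = 0.128). With L-Tyr none of 7 was called, the closest being miR-31-5p (−0.80, edgeR's adjusted p = 0.125) and miR-146a-5p (1.18, edgeR's adjusted p = 0.519). Of the miR-449 genes, whose 5p arms carry the seed of miR-34a-5p, miR-449a was at 10.8 CPM in replicate 2 of 5-Brd-2′-dU alone, and miR-449b and miR-449c were at 0.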

How the data were processed

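Small RNA of 9 B16F1 libraries was sequenced, and the authors obtained the deposited counts per tag with the BaseSpace Small RNA app, for which the labels give mm9. FastQC, MultiQC, DESeq and DESeq2 are also named in the submitters' processing notes. The counts are whole numbers that were not normalized. The authors' normalized counts were not used, nor were their comparison tables, which hold means, log2 fold changes and p-values. All 9 libraries entered the groups given by the labels, and no pair had identical values. Total deposited counts ran from 144452 to 424122, which sets the limits of detection given with the results.

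Tags were summed by hairpin name, with copies joined, and by arm, a tag position under 35 in the hairpin being 5p. Predicted hairpins were summed under their own labels and are counted among the arms tested. Each comparison was fitted on its 6 libraries with edgeR 4.0.16 (TMM, filterByExpr, quasi-likelihood test) in R 4.3.3, with Benjamini-Hochberg adjustment over all sums tested and calls at an adjusted p under 0.05. The method was tested on simulated data. Single arms were compared with exact permutation tests (scipy 1.17.1). The members and lists were chosen with earlier results of these data known. The text names every member arm, and of each list those called and up to 2 with the smallest p in each comparison. An arm would have been named for a similar pattern only if the member had at least 10 counts in every library. Sequences are from RefSeq (GRCm38.p6), and positions from NCBIM37, where the 7 hairpins of the members matched their RefSeq sequence. As alternatives, no filter, library totals or DESeq2's size factors in place of TMM, a fit of all 9 libraries, a replicate block, DESeq2 1.42.0, each tag sequence counted once, both arms summed, single tags, and leaving out each library were run.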

Additional observations from a re-analysis of the deposited data

How the results depend on the processing

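No member arm that entered a main fit was called under its alternatives. This covers miR-192-5p and miR-194-5p in each comparison, and miR-34b-3p between the exposures. Arms outside a main fit were not followed in its alternatives, also where the fit without a filter or with DESeq2 included them. The log2 fold change of miR-192-5p between 5-Brd-2′-dU and control cells stayed positive in 15 of 15 alternatives (edgeR's or DESeq2's adjusted p from 0.124 to 0.463). A sign change was counted as a reversal where at least 1 of the values lay beyond 1 SE from 0. By this measure 3 differences between 5-Brd-2′-dU and control cells reversed when 1 library was left out, all in arms with few counts: miR-34b-3p without replicate 3 of 5-Brd-2′-dU (−15.0 CPM, from 27.8, with up to 49.2 on leaving out another library), miR-34c-3p without replicate 2 (−6.62 CPM, from 14.3, up to 24.7) and miR-215-5p without replicate 2 (−13.2 CPM, from 29.2, up to 50.5). These arms were counted in 1 library of that group, which the alternative removes. The share of counts at each arm's most frequent start stayed within its Wilson interval in the 14 analyses of longer or exactly matching tags only (miR-192-5p, 35.2% and at most 36.7%), while that of miR-192-5p starting 3 bases in fell from 26.4% to 21.5% with exactly matching tags, below its interval.

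The number of arms called moved more. Between L-Tyr and control cells it was 6, and 12 without a filter, 18 with DESeq2's Wald test, 3 with both arms summed, 1 for single tags and 0 to 7 on leaving out a library. Between 5-Brd-2′-dU and control cells it was 12, and 6 with DESeq2's size factors, 3 with scaling by total count, 49 without a filter, 21 with DESeq2, 5 with each tag sequence counted once, 0 for single tags (156 of 1488 with an unadjusted p under 0.05) and 0 to 13 on leaving out a library. It was 0 without replicate 2 of control cells (39 with an unadjusted p under 0.05) and 5 without replicate 3 of 5-Brd-2′-dU. Between the exposures it was 6, and 27 without a filter, 3 in the fit of all 9 libraries, 11 with DESeq2, 2 for single tags and 0 to 5 on leaving out a library, the 0 being found on leaving out either L-Tyr replicate 3 or 5-Brd-2′-dU replicate 2 (21 and 36 with an unadjusted p under 0.05). Without replicate 3 of L-Tyr the L-Tyr against control count was also 0 (32 with an unadjusted p under 0.05). The cause was not tested. The calls of miR-21a-5p were kept in 5 of 15 alternatives against control cells and in 8 of 15 against L-Tyr.

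With the replicate number as a block the counts of calls were 10, 1 and 2, and miR-192-5p had 2.22 between 5-Brd-2′-dU and control cells (edgeR's adjusted p = 0.237). The deviations of same-numbered libraries correlated between −0.0921 and 0.0206, and 1 of the 9 pairs was the best match of its library. No pairing by number was thus seen, but with 3 libraries per group this check cannot exclude one, and the labels do not say.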

Other observations

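Several tags of the p53-induced miRNAs were found in 1 library only, although they are listed as distinct entries. Of the 38 tags, 22 (57.9%) reached 5 counts in a single library, while 39.8% of all tags did. For miR-192-5p the tag ACCTAtgaattgacagc held 19 of the 54 counts of replicate 3 of L-Tyr and was counted in no other library. In replicate 2 of L-Tyr all 31 counts of miR-192-5p lay in its leading tag.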
